A study of Drosophila melanogaster with 2 samples.

Results

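The GATA factors of the fruit fly Drosophila melanogaster are zinc finger transcription factors that bind GATA motifs, and 1 of them, Serpent (srp), is needed to form embryonic blood cells (hemocytes) and the fat body. The genes described here are the GATA family (srp, pnr, grn, GATAd and GATAe), the srp cofactor gene ush, and the lineage transcription factor genes zfh1, klu, peb and gcm. They were taken by gene symbol from the probes of the array to which the platform annotation gives a single symbol. Of the 10 listed genes 9 were measured, among 8224 genes in all, and gcm was not analysed here.

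The data are 2 two-colour arrays, A and B, hybridised with total RNA of whole embryos: each had RNA of serpent mutant embryos (hemocyte minus) in one channel and of wild type embryos (hemocyte plus) in the other. On array A the hemocyte minus RNA carried Cy3 and the hemocyte plus RNA Cy5, and on array B the dyes were swapped. Both channels of array A are labelled unwounded, a word that the channel labels of array B do not repeat. No source used here gives the allele, the embryonic stage or the way the mutants were collected, or says whether the arrays held separate RNA extracts, so p-values measure only the spread between these arrays.

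Srp acts at the top of the blood lineage in the head mesoderm of the embryo. Downstream of it, gcm directs cells to become plasmatocytes, the macrophages of the embryo, and a Runx factor gene, lz, directs others to become crystal cells, which carry the enzymes of melanization. U-shaped, the fly relative of the vertebrate FOG proteins, binds the zinc finger of GATA factors and changes what they activate. Most of these factors also, or mainly, work in tissues other than blood, among them the midgut, the heart, the amnioserosa and the nervous system.

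All values are log2 ratios of hemocyte minus over hemocyte plus, centred on each array, so that 0 is the level of the typical probe. Which dye stood in the numerator of the deposited ratios is not stated in any source used here. Cy3 was taken as the numerator because the crystal cell gene PPO1, which encodes a prophenoloxidase, then lies at -4.81 (array A) and -4.92 (array B), that is, lower in the embryos labelled hemocyte minus. This direction is likely, not known: every sign below turns, with its size and p kept, if Cy5 was the numerator. The arrays give no level of a transcript, so one gene's expression cannot be set against another's. In whole embryos fewer cells of a type and less RNA per cell cannot be told apart.

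None of the 9 genes passed the test of a difference from 0 (limma, Benjamini-Hochberg adjusted p under 0.05 over all 8224 genes), where 13.4% of all genes passed, 5.27% lower and 8.18% higher in hemocyte minus embryos. At an unadjusted p under 0.05, 1 of the 9 passed, against 27.5% of all genes. No member was at least 2-fold from 0 on both arrays, where 2.99% of all genes were (1.17% lower and 1.82% higher). The smallest difference that passed over all genes was 1.36-fold, and the mean differences of the 9 genes were between 1.02-fold and 1.22-fold.

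**Figure D1:**
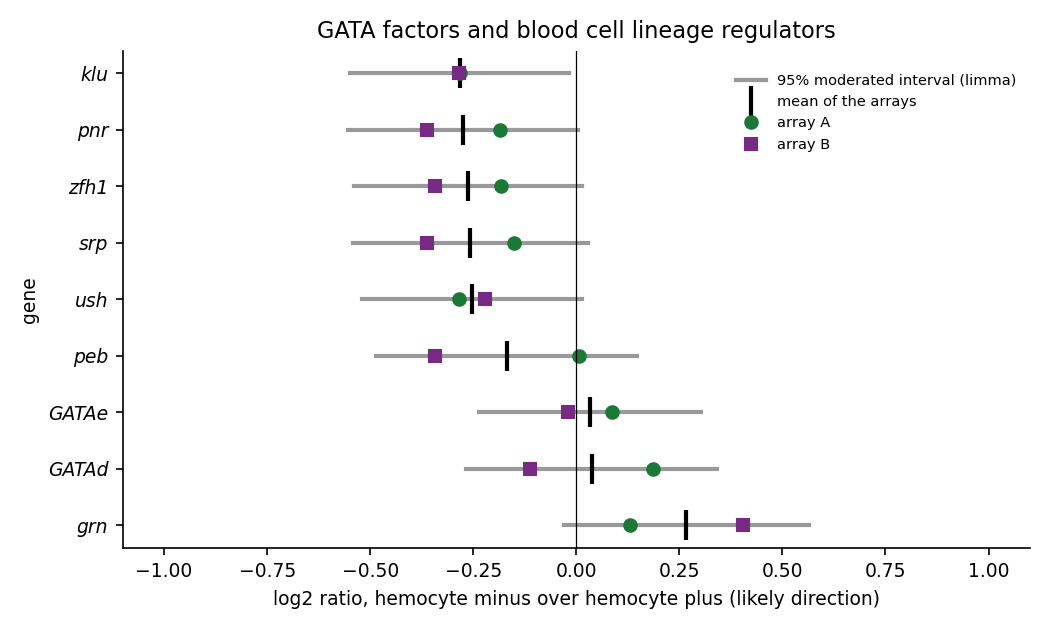
Log2 ratio of hemocyte minus over hemocyte plus embryos for the 9 measured genes. Circles are array A, squares array B, black bars their mean and grey lines the 95% moderated interval of limma; all 9 means lie between -0.28 and 0.27.

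The mutated gene itself, srp, had a log2 ratio of -0.15 (array A) and -0.36 (array B). Both values were below 0, but the mean of -0.26 ± 0.15 (SD, n = 2 arrays), a 1.20-fold difference, did not pass (limma adjusted p = 0.221). The 95% interval of srp ran from -0.54 to 0.03 and did not reach a 2-fold difference in either direction. It covers only spread between these arrays, that of 1 probe moderated by that of all genes, and the height of the spot above background is unknown. It therefore sets no bound on the difference of the transcript between the genotypes. Of all genes, 14.6% had a mean at or below that of srp. The allele is unknown here, and with it whether the probe lies inside or outside the mutated stretch, so this ratio is no check of the genotype.

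The GATA family as a whole went in no common direction. Pannier (pnr), a GATA factor of the dorsal ectoderm and the heart, had -0.18 (array A) and -0.36 (array B), with a mean of -0.27 ± 0.13 (limma adjusted p = 0.189). GATAe, which acts in the midgut endoderm downstream of srp, had 0.09 (array A) and -0.02 (array B). For GATAe the mean of 0.03 ± 0.07 had a 95% interval from -0.24 to 0.30 (limma adjusted p = 0.876). GATAd had 0.19 (array A) and -0.11 (array B), with a mean of 0.04 ± 0.21. For GATAd and GATAe the arrays thus lay on different sides of 0, and for srp and pnr both lay below it. The median of the 5 family members was 0.033, against -0.0014 over all genes, and it became -0.0042 when probes were not averaged. Whether the cDNA probes also bind transcripts of related GATA genes was not examined.

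Grain (grn), a GATA factor known from the posterior spiracles and motor neurons, was the only member above 0 on both arrays (34.4% of all genes were), at 0.13 (array A) and 0.40 (array B), with a mean of 0.27 ± 0.19 (limma adjusted p = 0.223). It was also the only member with 2 spots, one of them, by its name, a re-amplified copy of the same cDNA clone. The first spot had 0.10 (array A) and 1.05 (array B). The re-amplified spot had 0.16 (array A) and -0.25 (array B). The positive mean of grn therefore rested on 1 spot of array B: the first spot alone averaged 0.58 ± 0.67 and the re-amplified one -0.04 ± 0.29, and neither passed (adjusted p = 0.187 and 0.879 with each probe fitted on its own).

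The cofactor gene ush had a log2 ratio of -0.28 (array A) and -0.22 (array B), a mean of -0.25 ± 0.04 (limma adjusted p = 0.201). Its arrays differed by 0.06, less than the median difference of 0.17 between arrays over all genes. Its 95% interval, from -0.52 to 0.01, held 0. The repressor gene zfh1, a zinc finger and homeodomain factor of the mesoderm that is also expressed in hemocytes, had -0.18 (array A) and -0.34 (array B), with a mean of -0.26 ± 0.11 (adjusted p = 0.201). Ush and zfh1 lay as far below 0 as srp did, within the spread of the arrays.

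Among the factors known from crystal cells, klumpfuss (klu), a zinc finger factor of the EGR and WT1 type, had the lowest mean of the 9 genes. It lay at -0.28 on both arrays (mean -0.28 ± 0.0008, a 1.22-fold difference). It was the member that passed before adjustment, and did not pass after it (limma adjusted p = 0.159). Its 95% interval ran from -0.55 to -0.02 and was the only one of the 9 without 0. Pebbled (peb, also called hindsight), a zinc finger factor of the amnioserosa, the tracheae and crystal cells, had 0.01 (array A) and -0.34 (array B). Peb averaged -0.17 ± 0.25 (adjusted p = 0.459), the widest spread of the 9 genes when the spots of grn were averaged.

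In rising order the means were those of klu, pnr, zfh1, srp, ush, peb, GATAe, GATAd and grn. The first 5 of these lay between -0.28 and -0.25 and were below 0 on both arrays, where 34.2% of all genes were. One sign on both arrays was shared by 6 of the 9 genes, against 68.6% of all genes. No neighbours in the order were separated by more than 0.23, and the intervals overlapped in all 8 neighbouring pairs. Over all 9 genes, the lowest interval bound was -0.55 and the highest 0.56, which is 1.47-fold lower and 1.48-fold higher in hemocyte minus embryos. The highest bound is that of grn with its spots averaged, and its first spot alone had a mean above that bound, 0.58 ± 0.67. All these intervals use a spread borrowed across genes, since a single gene has 1 residual degree of freedom.

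Among the members the arrays differed least for klu, by 0.001. The direction of the array differences of the members was not compared with that of all genes, so no shift of the members is read from it. The 32 spots on each array named as fly genomic DNA were lower on array B. Their median was 0.14 (array A) and -0.21 (array B). The other control spots went the opposite way, with medians of -0.23 (Cab), -0.02 (RUBISCO), -0.18 (PRKase) and -0.07 (NAC1) on array A. On array B these were 0.48, 0.12, 0.21 and 0.27. Those spots varied more, with SDs from 0.46 to 1.23, against 0.09 and 0.06 for genomic DNA. With the spots of grn averaged, the largest array difference among the members was 0.35, for peb. This was as wide as the gap between the genomic DNA medians. The single spots of grn differed by more, by 0.95 (first spot) and -0.41 (re-amplified spot), array B minus array A. The part of any such shift in the members' values was not tested. An equal shift with the dye enters the turned arrays with opposite signs and cancels in their mean.

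**Figure D2:**
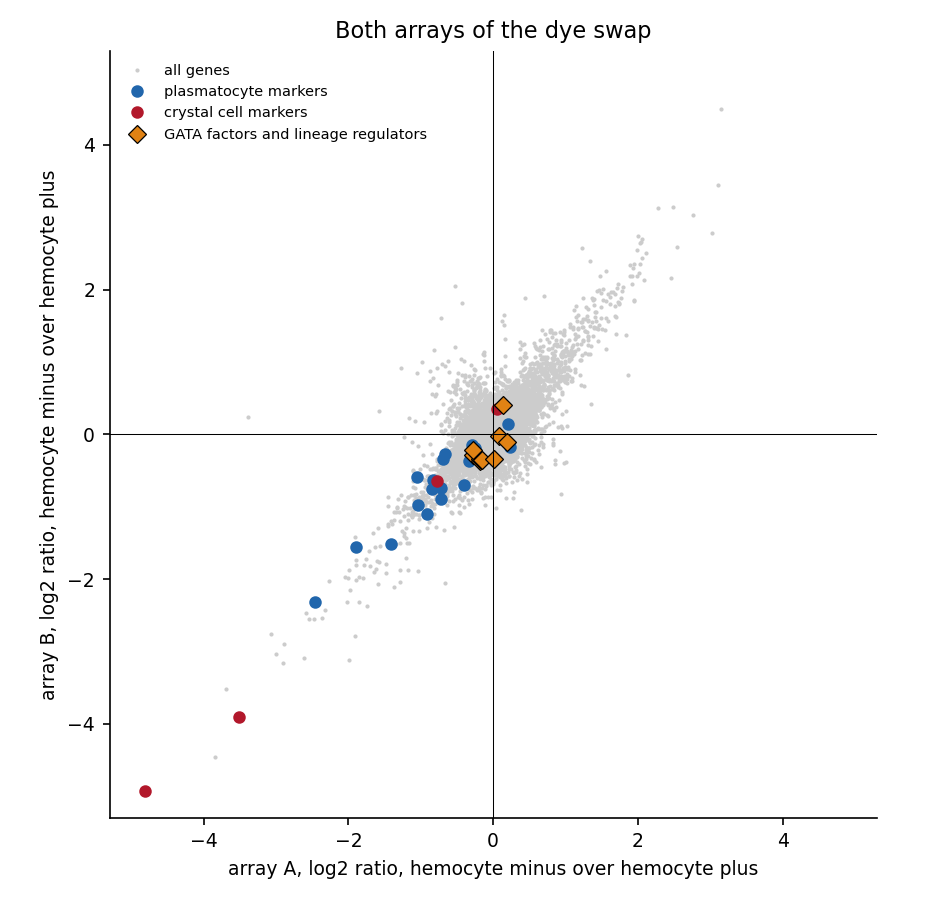
Log2 ratio of hemocyte minus over hemocyte plus on array A (x axis) and array B (y axis) for 8224 genes (grey), with plasmatocyte markers (blue), crystal cell markers (red) and the 9 GATA and lineage regulators (orange). The regulators sit in the central cloud, while PPO1 lies at -4.81 (array A) and -4.92 (array B).

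The GATA genes srp, GATAe and pnr lie close together on chromosome arm 3R: in the gene order of the RefSeq Release 6 table the measured genes run mor, Hel89B, srp, GATAe, pnr, and 2 genes that were not measured lie between srp and GATAe. Of the 20 measured genes nearest to srp, 10 on each side, none passed in limma, where 13.4% of all genes did. An unadjusted p under 0.05 was found for 4 of the 20, against 27.5% of all genes. The means of the 20 ran from -0.41 to 0.31 with a median of -0.02, 11 below 0 and 9 above. Of the 20, 5 lay below srp, where 14.6% of all genes lay at or below it. The lowest was mor, a subunit gene of the Brahma chromatin remodelling complex, at -0.50 (array A) and -0.32 (array B). Next to srp, the helicase gene Hel89B had -0.45 (array A) and -0.28 (array B). On the other side, pnr was below 0 on both arrays and GATAe was not.

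**Figure D3:**
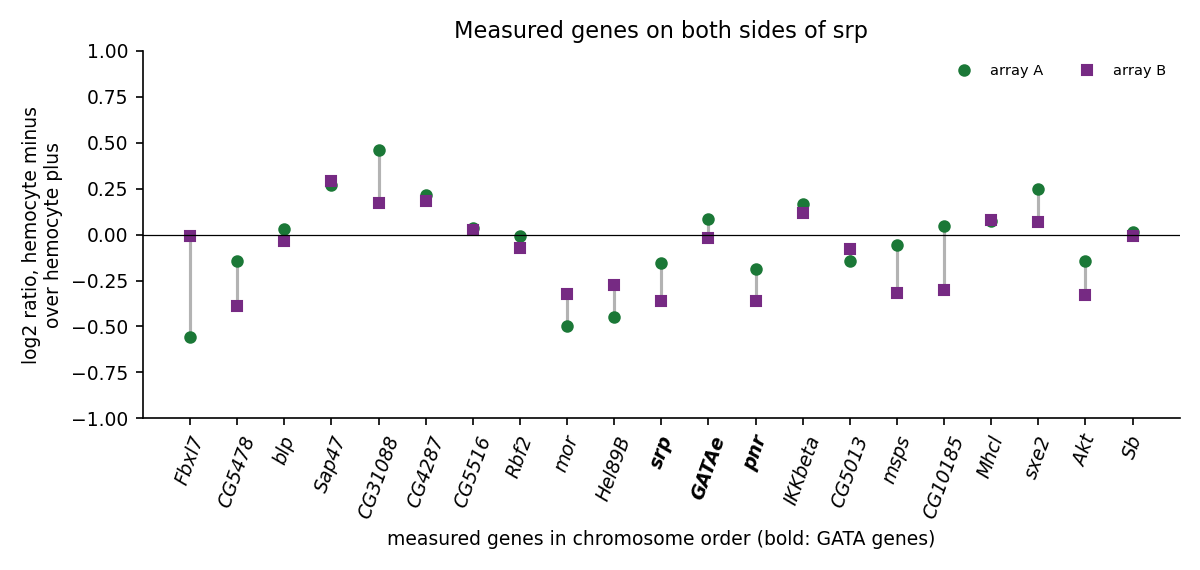
Log2 ratio of hemocyte minus over hemocyte plus on array A (circles) and array B (squares) for srp and the 10 measured genes on each side of it, in chromosome order. Values of mor and Hel89B are below 0 on both arrays, and those of GATAe lie at 0.09 and -0.02.

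Other regulators of the blood lineage were measured for 15 of 24 listed genes, and 1 passed in each direction, which is 13.3% beside the 13.4% of all genes. Their median was -0.02. The forkhead factor gene jumu, known from blood cell differentiation in larvae, was lower in hemocyte minus embryos, at -0.47 (array A) and -0.57 (array B), with a mean of -0.52 ± 0.07 (1.43-fold, limma adjusted p = 0.0306). Dif, which encodes an NF-kappaB factor of the Toll pathway, was higher, at 0.77 (array A) and 0.60 (array B), with a mean of 0.68 ± 0.12 (1.61-fold, adjusted p = 0.0132). The crystal cell regulator lz and the gcm relative gcm2 were among the 9 genes not analysed. With each probe fitted on its own, 4 probes of this list passed: those of jumu, both of Dif and 1 of the 3 of dom, a chromatin remodeller gene. The dom probe that passed lay at -0.50 ± 0.03 (adjusted p = 0.0429) and the others at -0.26 ± 0.15 and -0.33 ± 0.25. Their mean of -0.37 ± 0.13 did not pass as a gene (limma adjusted p = 0.0982).

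Serpent, u-shaped, hindsight (peb) and tail-up (tup) are known together as the U-shaped group, whose mutants fail to retract the germ band. Tup, a LIM homeodomain factor gene, had -0.19 (array A) and -0.21 (array B), with a mean of -0.20 ± 0.02 (limma adjusted p = 0.290). All 4 genes of the group had means below 0, with a median of -0.23, against -0.0014 over all genes. Of the 4 genes, 3 were below 0 on both arrays, where 34.2% of all genes were. None of the group passed, also before adjustment. Of 12 measured genes of the amnioserosa and dorsal ectoderm, where peb, ush and pnr act, none passed (1 had an unadjusted p under 0.05), and the median was -0.19. The Dpp receptor gene tkv was the lowest at -0.63 ± 1.35 but had -1.58 (array A) and 0.33 (array B), and the highest was its ligand gene dpp at 0.04 ± 0.15.

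Genes of the other tissues in which the members work were mostly not past the threshold, which holds for genes in general, of which 13.4% passed. Among 10 heart and pericardial genes, where pnr acts, the matrix gene prc rose, at 0.84 ± 0.11 (1.79-fold, limma adjusted p = 0.00642) and so did the nephrocyte receptor gene Cubn, at 0.56 ± 0.14 (adjusted p = 0.0279). None fell, and the lowest was Him, a muscle and heart progenitor gene, at -0.31 ± 0.28. None of 11 endoderm and midgut genes passed, also before adjustment, from srp to the midgut gene mex1 at 0.20 ± 0.22, with a median of -0.10. None of 7 genes of the posterior spiracles and tracheae passed (1 before adjustment), from the zinc finger factor gene salm at -0.36 ± 0.43 up to grn, with a median of -0.21. Among 7 glia genes none passed either (1 before adjustment), and their values ran from Gs2, a glutamine synthetase gene, at -0.29 ± 0.05 to moody at 0.26 ± 0.02.

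Markers of the cells and tissues that need srp included many genes past the threshold. Of 18 plasmatocyte markers 11 fell and none rose, with a median of -0.73. Of these 11, NimC1 did not pass without re-amplified or duplicate probes (limma adjusted p = 0.0829). The largest falls were in the matrix gene Ppn (-2.39 ± 0.10, limma adjusted p = 0.000318), the apoptotic cell receptor gene NimC4 (-1.73 ± 0.24), the peroxidasin gene Pxn (-1.46 ± 0.08) and the collagen IV gene Col4a1 (-1.01 ± 0.13), and Tig was the highest at 0.17 ± 0.05. Of 6 crystal cell genes, klu and peb among them, PPO1 (-4.87 ± 0.08, 29.2-fold, adjusted p = 7.51e-05), PPO2 (-3.71 ± 0.28) and the malic enzyme gene Men (-0.71 ± 0.10) fell, and Ahcy was the highest at 0.20 ± 0.22. Of 12 fat body genes 8 fell, led by the lipoprotein gene apolpp (-1.33 ± 0.24), the lipid transfer gene Apoltp (-0.96 ± 0.02), Mtp (-0.91 ± 0.24) and Nplp2 (-0.89 ± 0.11), and Gpdh1 rose, at 0.48 ± 0.07. The direction of all ratios was set from the side of PPO1 and the other hemocyte markers, so these signs are no independent evidence of it.

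Muscle markers lay on the other side of 0, and neuron markers on both. Of 9 muscle genes 6 rose, led by the muscle LIM protein gene Mlp60A (1.32 ± 0.20, limma adjusted p = 0.00195), the paramyosin gene Prm (1.11 ± 0.12), the giant kinase gene bt (0.86 ± 0.19) and the tropomyosin gene Tm2 (0.80 ± 0.19), and none fell; the lowest was Msp300 at 0.15 ± 0.10. Of 6 neuron genes, with a median of 0.17, 2 rose: Gad1 (0.68 ± 0.02), for the enzyme that makes GABA, and nSyb (0.46 ± 0.09), for a synaptic vesicle protein, and the lowest was futsch at -0.22 ± 0.06. The call of nSyb (adjusted p = 0.047) ended with the probe of largest change and without re-amplified or duplicate probes (adjusted p up to 0.0565 in limma). The part of these shifts of other tissues in the ratios of the 9 regulators was not tested.

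**Figure D4:**
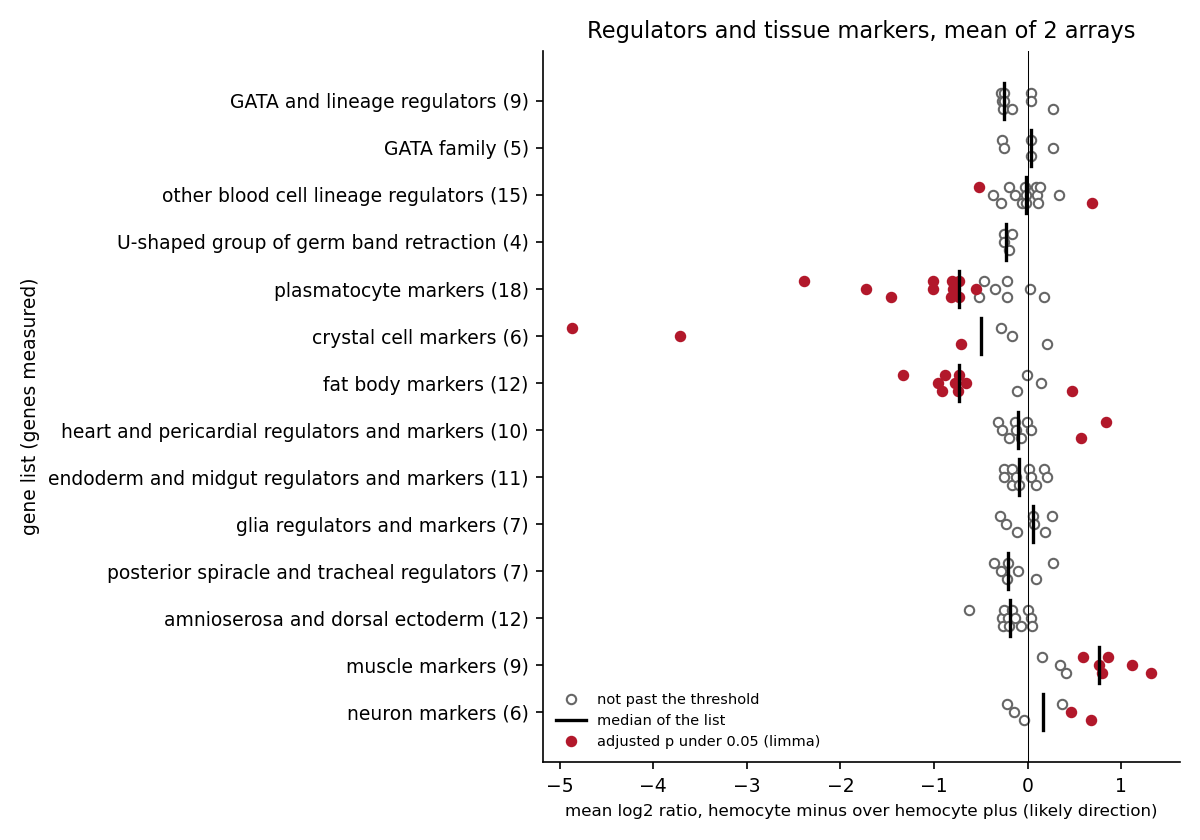
Mean log2 ratio of hemocyte minus over hemocyte plus for each measured gene (points) by gene list, with filled points for genes past the limma threshold and black bars for list medians. None of the 9 regulators is filled and their median is -0.25, while plasmatocyte markers have a median of -0.73 and muscle markers of 0.76.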

How the data were processed

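The authors deposited a single value for each probe on each array, always below 0 (medians -0.989 for array A, -1.021 for array B), and the values look like linear ratios of the dyes with a minus sign. The arrays carried amino-allyl labelled total RNA, per the labels' protocols; no source used here names the scanner, background correction or normalization. Without channel intensities, how far each spot stood above background is unknown, and precision is limited by the number of arrays. The log2 of each value's size was turned to hemocyte minus over hemocyte plus by the labelled dyes, with Cy3 as numerator. Each array was centred on its median, without 160 control spots (by probe name). Across probes the unturned log2 ratios correlated at Pearson r = -0.689, the sign of opposite dye orientations. Probe genes came from the platform annotation: 9917 probes had 1 symbol, 625 several and 1602 none, and only the first entered; 9746 were matched by gene ID to RefSeq (Release 6). The probes of a gene with values on both arrays were averaged.

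The test was limma 3.58.1 in R 4.3.3 (lmFit, eBayes, intercept only) with Benjamini-Hochberg adjustment over 8224 genes. It was also run on simulated data with noise drawn from its own fitted spread, which cannot show that the model suits these arrays. Gene lists were described by counts and medians. A value after ± is the SD over both arrays. The members and lists were chosen with earlier results of these data known. Named in the text are all measured members, and in each other list the genes past the threshold (the 4 largest where more passed) with the highest and lowest, and the measured genes next to srp. NimC1 was named for the loss of its call. Alternatives covered centring, scaling, probe averaging, marked probes, missing values, moderation and single arrays.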

Additional observations from a re-analysis of the deposited data

How the results depend on the processing

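None of the 9 genes passed limma under any alternative, and 8 kept the sign of their mean in all of them: without centring, with arrays scaled to one spread, with the probe of largest change, with each probe on its own, without re-amplified or duplicate probes, with a value on either array enough, with robust moderation and, chosen after seeing the data, with control spots in the centring. The exception among these fits was grn, whose re-amplified spot alone gave -0.042. On single arrays the sign also differed from that of the mean for GATAd (-0.11 on array B), GATAe (-0.02 on array B) and peb (0.01 on array A). The mean of srp ran from -0.28 to -0.26 (adjusted p from 0.169 to 0.24), and that of klu from -0.31 to -0.28 (adjusted p from 0.117 to 0.177). With each probe on its own, 4 probes of the other blood regulators, 17 of the plasmatocyte markers and 16 of the muscle markers passed, since genes with several probes count more than once, and the medians of 5 lists moved by over 1.5 times: spiracle genes to -0.10 (main value -0.21), neuron markers to 0.37 (0.17), endoderm genes to -0.035 (-0.096), the other blood regulators to -0.026 (-0.016) and the GATA family to -0.0042 (0.033), across 0. Without centring the GATA family median was 0.010, that of the other blood regulators -0.039 and that of glia genes 0.032 (0.055). The neuron median was also 0.37 with a value on either array enough. The number of neuron markers that passed was 1 with the probe of largest change and 1 without marked probes. The spiracle median was -0.24 without centring, the plasmatocyte median -0.64 without marked probes and the muscle median 0.80 with the probe of largest change; the cause was not tested. On single arrays, as values with no test, the median of the members was -0.15 and -0.28, of the GATA family 0.086 and -0.11, of plasmatocyte markers -0.72 and -0.67, of crystal cell markers -0.53 and -0.49, of endoderm genes -0.11 and -0.020, of glia genes -0.030 and 0.034, of spiracle genes -0.090 and -0.12, of amnioserosa genes -0.19 and -0.14 and of muscle markers 0.76 and 0.73 (array A, then B). At least 2-fold higher were 150 genes on both arrays, 172 on array A and 252 on array B alone. The test of ratios within an array already pairs both RNAs, so no further replicate block was fitted.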
